A study of Mus musculus with 28 samples.

Results

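Unstimulated CD4+ T cells of Sle1b.BACSlamf6-H1 mice were compared with those of B6.Sle1b mice on 3 arrays of each strain, which together are 6 of the 28 arrays of the series. The arrays were chosen by their strain and treatment labels alone, and every gene that could be named was tested. The question was what the added chromosome changes in resting cells that otherwise share the Sle1b interval.

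Sle1b.BACSlamf6-H1 mice carry the Sle1b interval together with a bacterial artificial chromosome (BAC), a large genomic DNA clone, named for the H1 form of Slamf6. B6.Sle1b mice carry the same interval of chromosome 1 without the BAC, and C57BL/6 mice, of which 3 unstimulated arrays are set beside both, carry neither. All were 12-week-old females, and total CD4+ T cells had been isolated from the spleen and kept in culture medium without antibody. Other cells of each strain had been activated through the T cell receptor, by antibody to CD3 coated on the plate at 0.1 µg/ml, for 4 h or 24 h. The labels call the arrays of a group biological replicates but name no animals, and they do not state the copy number, integration site or expressed transcripts of the BAC.

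SLAM family receptors are surface glycoproteins of lymphocytes and other blood cells that mostly bind their own kind on a neighbouring cell and signal through small adaptors, of which SAP, the product of Sh2d1a, is the main one in T cells. Slamf6, also called Ly108, is spliced into forms that differ in the cytoplasmic tail, and the Sle1b interval, which spans the family, is known for its link to antinuclear antibodies in lupus-prone mice. The same receptors and SAP are known for their part in T follicular helper cells, the CD4+ cells that help B cells in germinal centres.

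Values are log2 intensities after robust multi-array averaging (RMA), differences are Sle1b.BACSlamf6-H1 minus B6.Sle1b ± their standard error (SE), and genes count as called when limma's Benjamini-Hochberg adjusted p over all genes was under 0.05. Probe sets that match no transcript put the background of the 6 arrays at a log2 intensity of 2.76 to 3.06. The 75th percentile of intensity was 48.8, 51.3 and 43.3 on the Sle1b.BACSlamf6-H1 arrays and 47.0, 53.3 and 35.6 on the B6.Sle1b arrays. Array 3 of B6.Sle1b thus had the lowest 75th percentile of the 6. Its median intensity was the highest, at 10.38 against 9.13 to 9.58 on the others. Of all genes tested, 35.4% had their highest value of the 6 arrays on it and 31.5% their lowest. Of 10 defining markers of CD4+ T cells 6 were measured, each above background in both strains and none called. Cd3d, a T cell receptor subunit, averaged 11.45 ± 0.03 in Sle1b.BACSlamf6-H1 and 11.57 ± 0.02 in B6.Sle1b, and Cd4 averaged 6.30 ± 0.16 and 6.16 ± 0.59 in the same order of strains (SD, n = 3 each). Transcripts of other cells were present as well, among them Cd79b of B cells at 7.25 ± 0.35 in Sle1b.BACSlamf6-H1 and 7.06 ± 0.38 in B6.Sle1b. In these bulk samples a smaller number of cells of a type and less RNA per cell cannot be told apart.

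Slamf6, the gene the BAC is named for, did not differ detectably between the strains. Its brightest probe set, 1420659_PM_at, measured 8.45, 8.48 and 8.53 on the Sle1b.BACSlamf6-H1 arrays and 8.38, 8.68 and 8.15 on the B6.Sle1b arrays. The Sle1b.BACSlamf6-H1 values lay within the spread of the B6.Sle1b values. The difference was 0.08 ± 0.17, with a 95% interval of -0.26 to 0.43 and an adjusted p of 0.945 over all probe sets, so a rise of more than 0.43 lies outside the interval and a smaller one does not. A second probe set, 1425086_PM_a_at, measured 6.64, 6.77 and 6.99 in Sle1b.BACSlamf6-H1 and 6.41, 6.53 and 6.71 in B6.Sle1b. It overlapped between the strains, with a difference of 0.25 ± 0.21 and a 95% interval of -0.18 to 0.68 (adjusted p = 0.825). The third, 1457773_PM_at, lay at background in both congenic strains, at means of 2.59 and 2.44 in Sle1b.BACSlamf6-H1 and B6.Sle1b. C57BL/6 stood apart from both, lower on the brightest probe set (mean 7.28) and higher on the others (7.85 and 3.73). Which splice forms each probe set reads, and whether the transcript of the BAC reaches them, was not analysed here.

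**Figure D1:**
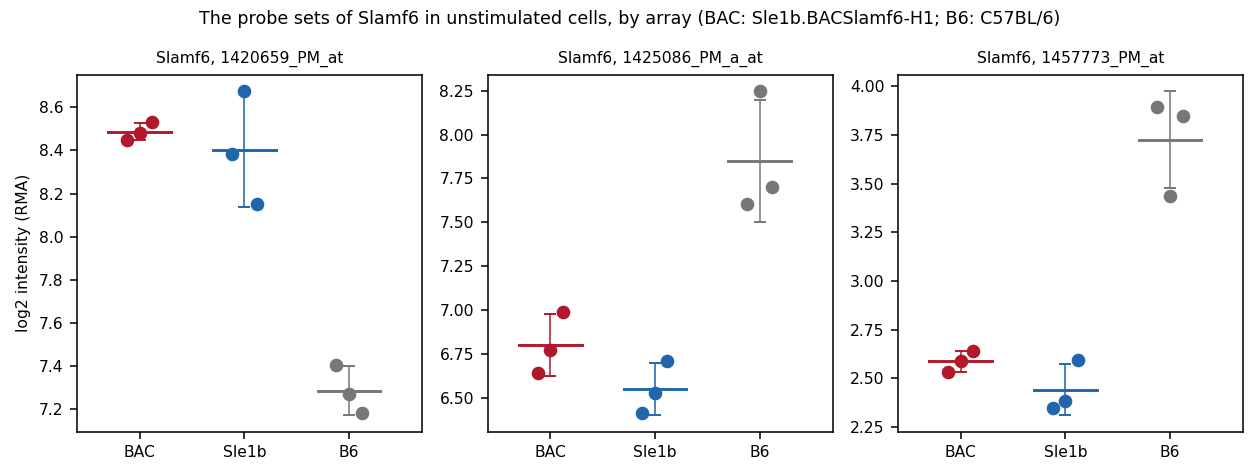
Log2 intensity (RMA) of each of the 3 Slamf6 probe sets on the unstimulated arrays of Sle1b.BACSlamf6-H1 (BAC), B6.Sle1b (Sle1b) and C57BL/6 (B6); points are arrays, wide bars are means and whiskers are SD (n = 3), and the y axes differ and do not start at 0. On every probe set the Sle1b.BACSlamf6-H1 arrays overlap the B6.Sle1b arrays, while the C57BL/6 arrays lie outside both.

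No member of the SLAM family was called. Of 12 family members and adaptors 9 were measured and 0 were called by limma. At an unadjusted p under 0.05, 1 was lower and 0 higher, where 6.18% of all genes were lower and 1.95% higher. The median difference of the 9 was -0.03, against -0.04 over all genes tested. Sh2d1a, which encodes the adaptor SAP, was the member with the smallest p, at 8.48 ± 0.17 in Sle1b.BACSlamf6-H1 and 8.96 ± 0.33 in B6.Sle1b (SD, n = 3 each; difference -0.48 ± 0.16, limma adjusted p = 0.418). Its highest Sle1b.BACSlamf6-H1 array lay just above the lowest B6.Sle1b array. The receptors Slamf1 (-0.30 ± 0.19), Cd84 (-0.28 ± 0.19) and Ly9 (-0.09 ± 0.23) overlapped between the strains. Among the 50 genes nearest to Slamf6 on chromosome 1 none was called, where 0.0819% of all genes were called lower. At an unadjusted p under 0.05, 2 of the 50 were lower, where 6.18% of all genes were, and the median difference was -0.05.

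Across all genes the strains differed in a short list of transcripts that were lower in Sle1b.BACSlamf6-H1. Of 17097 genes tested, 14 were called lower, which is 0.0819% of those tested, and 0 were called higher, where 333 genes (1.95%) were higher and 1057 (6.18%) lower at an unadjusted p under 0.05. The 14 were the protease inhibitors Stfa3 and Cst7, the deiminase Padi4, the membrane protein gene Ms4a6d, the secreted or surface molecules Sostdc1, Insl6, Nrn1 and Izumo1r, the interferon-induced Mx1, the inflammatory caspase Casp1, the organelle and trafficking genes Pex11a, Sec16b and Zdhhc2, and 1810009J06Rik. In each of them all Sle1b.BACSlamf6-H1 arrays lay below all B6.Sle1b arrays, a pattern that 8.36% of all genes showed, against 2.81% with the strains the other way round. Because 3 arrays against 3 allow an exact permutation p of no less than 0.1 for any single gene, the calls rest on the spread that limma estimated from all 26 biological arrays. With limma fitted to the 6 arrays alone 0 genes were called (820 at an unadjusted p under 0.05), and without 1 array at a time the count was 6, 6 and 5 for arrays 1, 2 and 3 of Sle1b.BACSlamf6-H1 and 9, 32 and 10 for arrays 1, 2 and 3 of B6.Sle1b. Stfa3, 1810009J06Rik, Sostdc1, Cst7 and Padi4 were called in all of these 6 fits, and they were the 5 genes left without array 3 of Sle1b.BACSlamf6-H1. Quantile normalizing again gave 14 lower and 4 higher calls. Of the 14 genes named above 8 were among them, and Insl6, Mx1, Nrn1, Zdhhc2, Casp1 and Izumo1r lost their calls. Centring each array on its median also kept 8 of the 14, and Mx1, Pex11a, Sec16b, Zdhhc2, Casp1 and Izumo1r lost theirs. Brightness as a covariate gave 74 lower and 34 higher, and array weights gave 2950 lower and 1068 higher. Of all differences, 59.2% lay below 0, and 48.5% did so after each array was centred on its median.

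**Figure D2:**
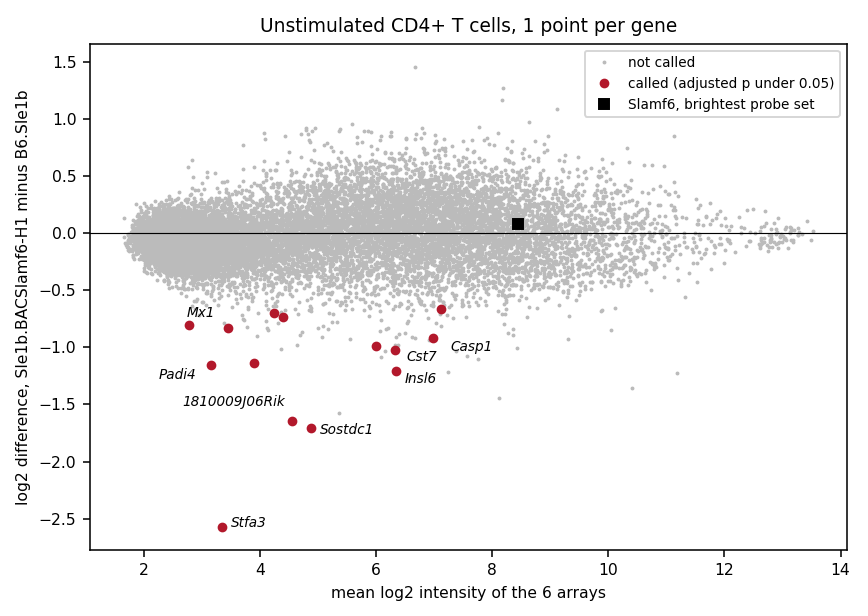
Difference in log2 intensity between unstimulated Sle1b.BACSlamf6-H1 and B6.Sle1b cells (y axis) against the mean log2 intensity of the 6 arrays (x axis), with 1 point for each of 17097 genes. The 14 called genes (red) all lie below 0, Stfa3 lowest at -2.57, and Slamf6 (black square) lies at 0.08.

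**Figure D3:**
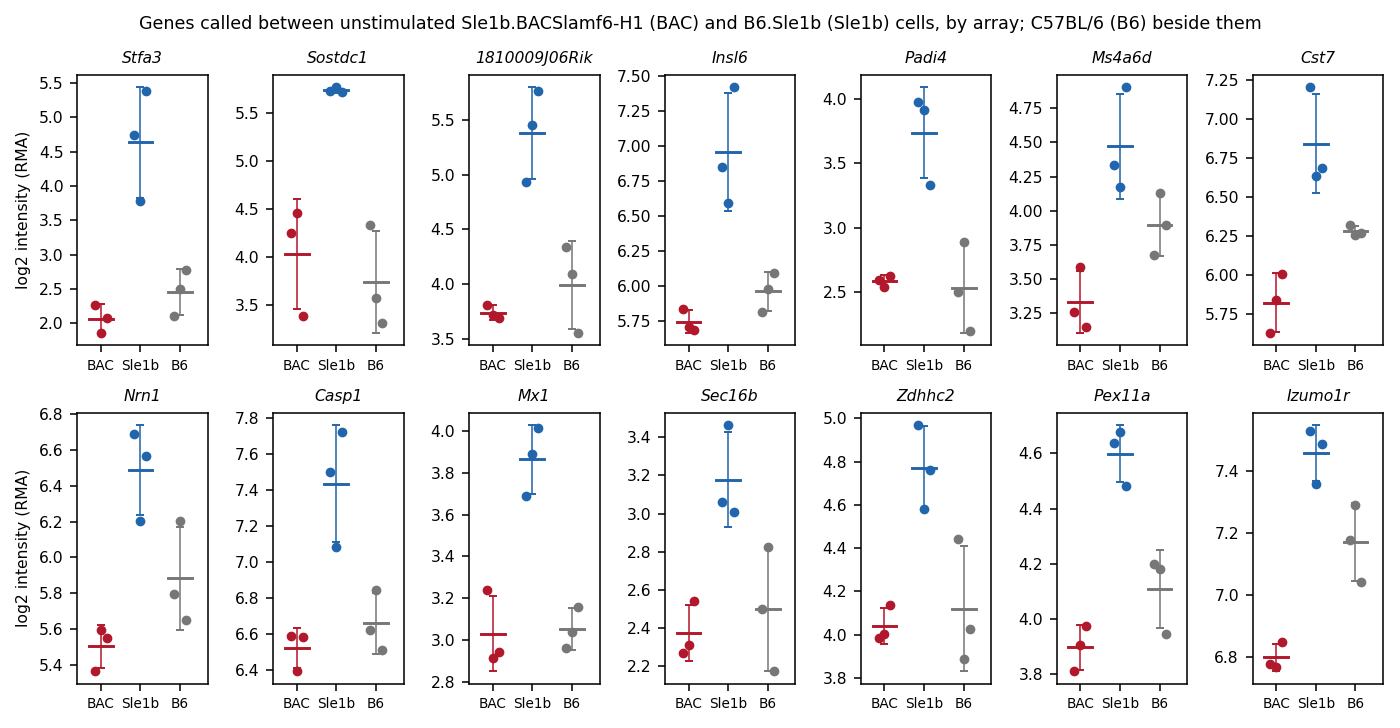
Log2 intensity (RMA) of each called gene on the unstimulated arrays of Sle1b.BACSlamf6-H1 (BAC), B6.Sle1b (Sle1b) and C57BL/6 (B6); points are arrays, wide bars are means and whiskers are SD (n = 3), and the y axes differ and do not start at 0. In all 14 genes the Sle1b.BACSlamf6-H1 arrays lie below the B6.Sle1b arrays, and the B6.Sle1b mean is above the C57BL/6 mean.

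The largest difference was in Stfa3, a stefin, one of the small cytosolic inhibitors of cysteine proteases such as cathepsins. It measured 2.27, 1.85 and 2.07 in Sle1b.BACSlamf6-H1 and 4.74, 3.78 and 5.39 in B6.Sle1b. Every Sle1b.BACSlamf6-H1 array lay at background, so the transcript was detected in B6.Sle1b alone of the 2 strains, at a level that varied among its arrays. The difference was -2.57 ± 0.26 (adjusted p = 3.69e-05), and B6.Sle1b was at least 3.48-fold higher. Cst7 encodes cystatin F, an inhibitor of the lysosomal cathepsins that activate granule proteases in cytotoxic lymphocytes. It was bright enough to be measured in both strains, at 5.63, 5.84 and 6.01 in Sle1b.BACSlamf6-H1 and 7.21, 6.63 and 6.69 in B6.Sle1b, a difference of -1.02 ± 0.15 or 2.03-fold (adjusted p = 0.0025). The groups were separated by more than the range of either. The calls of Stfa3 and Cst7 held without each of the 6 arrays in turn, at adjusted p-values of up to 8.96e-04 and 0.0324.

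The other inhibitors lay below 0 without being called. Of 20 listed stefins, cystatins, serpins and related inhibitors 12 were measured, 2 were called lower and 0 higher, and all 12 differences lay below 0, with a median of -0.44 against -0.04 over all genes, 4 of them at background in both strains. Over all genes 0.0819% were called lower and 59.2% lay below 0. Without array 3 of B6.Sle1b, 9 of the 12 lay below 0 and the median was -0.26. Cstb, a stefin found in most cells, measured 8.92, 8.77 and 9.24 in Sle1b.BACSlamf6-H1 and 9.48, 9.15 and 9.82 in B6.Sle1b (-0.51 ± 0.18, adjusted p = 0.467). Slpi, an inhibitor of leukocyte elastase, measured 7.70, 7.40 and 8.67 in Sle1b.BACSlamf6-H1 and 9.47, 8.51 and 8.46 in B6.Sle1b (-0.89 ± 0.46, adjusted p = 0.636). Both overlapped between the strains. The stefin relatives Stfa2l1, Csta1 and Csta2 lay at background in both strains.

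The promoters of Stfa3 and Cst7 are given for the 2 called inhibitors, in lower case, from 250 bases before to 50 after the RefSeq start site of assembly GRCm38.p6. The Stfa3 window is chr16:36455343-36455642 on the minus strand and the Cst7 window chr2:150570165-150570464 on the plus strand, each printed 5′ to 3′ along its gene. Neither holds the interferon motif described with the interferon genes, hence no capitals.
Stfa3: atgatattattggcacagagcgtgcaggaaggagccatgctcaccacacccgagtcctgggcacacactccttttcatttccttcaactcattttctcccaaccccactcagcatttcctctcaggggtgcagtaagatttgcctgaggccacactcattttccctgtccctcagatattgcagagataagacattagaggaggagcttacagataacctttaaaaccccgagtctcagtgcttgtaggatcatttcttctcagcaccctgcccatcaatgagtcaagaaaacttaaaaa
Cst7: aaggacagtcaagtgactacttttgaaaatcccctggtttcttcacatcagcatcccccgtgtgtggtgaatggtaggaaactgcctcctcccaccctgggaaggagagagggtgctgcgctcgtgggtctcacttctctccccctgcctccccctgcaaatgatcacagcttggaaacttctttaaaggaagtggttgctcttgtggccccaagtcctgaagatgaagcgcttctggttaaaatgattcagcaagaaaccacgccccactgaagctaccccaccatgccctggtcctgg

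Padi4 and Ms4a6d are genes of myeloid cells in the main. Padi4, a peptidylarginine deiminase that citrullinates histones in neutrophils, measured 2.60, 2.54 and 2.63 in Sle1b.BACSlamf6-H1 and 3.97, 3.91 and 3.33 in B6.Sle1b. It lay at background in Sle1b.BACSlamf6-H1, with a difference of -1.15 ± 0.17 (adjusted p = 0.00493) and at least 1.87-fold more in B6.Sle1b. Ms4a6d, a membrane protein gene of the MS4A family expressed in macrophages and some T cells, measured 3.26, 3.59 and 3.15 in Sle1b.BACSlamf6-H1 and 4.33, 4.17 and 4.90 in B6.Sle1b (-1.14 ± 0.19, 2.20-fold, adjusted p = 0.0171). The groups did not overlap in either gene. Without array 1 of Sle1b.BACSlamf6-H1 the adjusted p of Ms4a6d was 0.129, the highest of its leave-one-out values. Its other probe sets, 1419598_PM_at (-0.64 ± 0.18, adjusted p = 0.397 over all probe sets) and 1449539_PM_at (0.01 ± 0.12), lay at background in both strains. With the mean of its probe sets Ms4a6d was not called.

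Among 22 neutrophil markers 20 were measured, 2 were called lower (Stfa3 and Padi4) and 0 higher. At an unadjusted p under 0.05, 3 were lower and 0 higher. Of the 20, 9 lay below and 11 above 0. Over all genes 0.0819% were called lower, 6.18% were lower and 1.95% higher at an unadjusted p under 0.05, and 59.2% lay below 0. The median of the markers was 0.06, or -0.16 without array 3 of B6.Sle1b. Their summed intensity ran from 372 to 1335 on the Sle1b.BACSlamf6-H1 arrays and from 416 to 956 on the B6.Sle1b arrays. S100a8, an abundant calcium-binding protein of neutrophils, measured 5.57, 7.33 and 8.46 in Sle1b.BACSlamf6-H1 and 6.99, 7.64 and 4.13 in B6.Sle1b. It varied widely within both strains, and Stfa3 was highest on the B6.Sle1b array where S100a8 was lowest. Il1r2, a decoy receptor for interleukin 1 and the third marker lower at an unadjusted p under 0.05, did not overlap between the strains (-1.26 ± 0.36, adjusted p = 0.325). Itgam and Mmp8, 2 further neutrophil markers, lay at background in both strains.

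Of 20 monocyte and macrophage markers 19 were measured, and 1 was called lower (Ms4a6d) and 0 higher, against 0.0819% called lower over all genes. The median of the markers was -0.03. Their summed intensity was 1497 to 1606 in Sle1b.BACSlamf6-H1 and 1622 to 1786 in B6.Sle1b and did not overlap. Their mean log2 intensity did, at 3.99 to 4.24 in Sle1b.BACSlamf6-H1 and 4.06 to 4.37 in B6.Sle1b. The part of the difference in sums in the Ms4a6d result was not tested. Cybb, the oxidase subunit of phagocytes and after Ms4a6d the marker with the smallest p, measured 6.02, 6.04 and 6.24 in Sle1b.BACSlamf6-H1 and 6.87, 6.58 and 6.44 in B6.Sle1b, without overlap (-0.53 ± 0.26, adjusted p = 0.617). The defining genes Lyz2 (0.07 ± 0.36) and Csf1r (-0.20 ± 0.17) overlapped between the strains, and C1qa and C1qb lay at background in both. Of the erythroid and platelet markers 8 were measured and 0 called. Of the 8, 5 lay below and 3 above 0, against 59.2% below 0 over all genes, and the median was -0.09. The haemoglobin gene Hba-a1 measured 9.67, 11.06 and 11.02 in Sle1b.BACSlamf6-H1 and 11.87, 11.70 and 11.84 in B6.Sle1b (-1.22 ± 0.55, adjusted p = 0.592). The summed erythroid and platelet intensity, in which the brightest markers weigh most, was 1090 to 2640 in Sle1b.BACSlamf6-H1 and 3565 to 4564 in B6.Sle1b. The sums did not overlap, but the mean log2 intensity of the 8 did, at 4.77 to 5.42 in Sle1b.BACSlamf6-H1 and 5.02 to 5.90 in B6.Sle1b. The B cell markers, 17 measured and 0 called, had a median of -0.02 and overlapping sums of 1415 to 2236 in Sle1b.BACSlamf6-H1 and 1800 to 1923 in B6.Sle1b.

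Genes of T follicular helper cells were lower in Sle1b.BACSlamf6-H1 in 2 called members and below 0 in most of the rest. Of 20 listed genes 17 were measured, 2 were called lower and 0 higher, 14 lay below and 3 above 0, and the median was -0.48 against -0.04 over all genes. Over all genes 0.0819% were called lower and 59.2% lay below 0. Without array 3 of B6.Sle1b the median was -0.55. The list was chosen with earlier results of these data known, and its median is a description.

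Sostdc1, a secreted antagonist of BMP and Wnt signals that is expressed in T follicular helper cells, measured 4.25, 4.45 and 3.38 in Sle1b.BACSlamf6-H1 and 5.72, 5.77 and 5.72 in B6.Sle1b. The B6.Sle1b arrays agreed closely, while array 3 of Sle1b.BACSlamf6-H1 lay well below its companions. The difference was -1.71 ± 0.24, or 3.27-fold (adjusted p = 0.0024). A second probe set of the gene, 1449340_PM_at, was lower by -2.28 ± 0.43, also without overlap, and missed the threshold over all probe sets (adjusted p = 0.062). Izumo1r, a protein of the folate receptor family found on regulatory and anergic CD4+ cells, measured 6.78, 6.77 and 6.85 in Sle1b.BACSlamf6-H1 and 7.53, 7.36 and 7.49 in B6.Sle1b (-0.66 ± 0.13, 1.58-fold, adjusted p = 0.0493). Its arrays agreed closely within each strain, but it had the highest adjusted p of the called genes and reached 0.262 without array 2 of Sle1b.BACSlamf6-H1.

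The other members of that list were not called, and Cd200, Il6ra, Sh2d1a and Maf had the smallest p among them. Cd200, a surface glycoprotein, measured 6.01, 5.93 and 5.68 in Sle1b.BACSlamf6-H1 and 6.46, 6.56 and 6.38 in B6.Sle1b (-0.59 ± 0.13, adjusted p = 0.111). The inhibitory receptor Pdcd1 measured 6.92, 7.15 and 6.80 in Sle1b.BACSlamf6-H1 and 8.01, 7.63 and 7.46 in B6.Sle1b (-0.74 ± 0.29, adjusted p = 0.521). Neither overlapped between the strains, nor did the transcription factor gene Maf (-0.87 ± 0.33), the inhibitory receptor Btla (-0.35 ± 0.14) or the cytokine Il21 (-0.78 ± 0.46). Bcl6, the defining transcription factor of these cells, overlapped (-0.32 ± 0.35). Il6ra, the receptor for interleukin 6, ran the other way without overlap. It measured 8.70, 8.77 and 8.79 in Sle1b.BACSlamf6-H1 and 8.01, 8.19 and 7.62 in B6.Sle1b (0.81 ± 0.19, adjusted p = 0.189). Of the 17 measured members, 7 had all Sle1b.BACSlamf6-H1 arrays below all B6.Sle1b arrays and 1 had them above. Over all genes 8.36% had them below and 2.81% above.

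Genes tied to anergy and repeated stimulation share Izumo1r with that list. Of 17 measured members 2 were called lower (Nrn1 and Izumo1r) and 0 higher, against 0.0819% called lower over all genes. Of the 17, 12 lay below and 5 above 0, against 59.2% below 0 over all genes, and the median was -0.31. Nrn1 encodes neuritin, a surface-anchored protein first known from neurons and expressed in anergic and regulatory T cells. It measured 5.36, 5.59 and 5.55 in Sle1b.BACSlamf6-H1 and 6.69, 6.21 and 6.57 in B6.Sle1b, without overlap (-0.98 ± 0.18, 1.98-fold, adjusted p = 0.024, and up to 0.179 without array 1 of Sle1b.BACSlamf6-H1). The checkpoint receptor Lag3 measured 4.60, 4.20 and 3.93 in Sle1b.BACSlamf6-H1 and 5.28, 5.11 and 5.01 in B6.Sle1b (-0.89 ± 0.26, adjusted p = 0.338). Lag3, Tnfrsf9 (-0.60 ± 0.17) and Ctla4 (-0.37 ± 0.14) did not overlap between the strains, and none of these 3 was called. Of the 17, 8 had all Sle1b.BACSlamf6-H1 arrays below all B6.Sle1b arrays and 2 had them above. Over all genes 8.36% had them below and 2.81% above. Dgka, a lipid kinase that dampens T cell receptor signals, lay above 0 (0.60 ± 0.18, adjusted p = 0.386).

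Broader T cell programmes were called in single members or not at all, beside 0.0819% called lower, 6.18% lower and 1.95% higher at an unadjusted p under 0.05, and 59.2% below 0 over all genes. Of 19 memory and effector genes measured 1 was called lower (Cst7), with a median of -0.25, and Ifng, the cytokine interferon gamma, averaged 6.22 ± 0.39 in Sle1b.BACSlamf6-H1 and 7.14 ± 0.47 in B6.Sle1b (SD, n = 3 each; -0.92 ± 0.30, adjusted p = 0.416). Of 13 regulatory T cell genes measured 1 was called lower (Izumo1r), 4 were lower and 0 higher at an unadjusted p under 0.05, 9 lay below and 4 above 0, and the median was -0.26, or -0.44 without array 3 of B6.Sle1b. Among them the costimulatory receptor Tnfrsf4 (-0.46 ± 0.16) and the cytokine Il10 (-0.83 ± 0.29) did not overlap between the strains (adjusted p = 0.464 each), and the lineage factor Foxp3 did (0.10 ± 0.38). The 15 activation markers measured held 0 calls, 5 members lower at an unadjusted p under 0.05 and a median of -0.21. The early activation antigen Cd69 overlapped between the strains (-0.38 ± 0.23), while the maturation antigen Cd83 did not (-0.65 ± 0.18, adjusted p = 0.308). All Sle1b.BACSlamf6-H1 arrays lay below all B6.Sle1b arrays in 5 of the 13 regulatory and 5 of the 15 activation genes. They lay above in 0 of either list. Over all genes 8.36% had them below and 2.81% above. Naive and quiescence genes lay on the other side of 0, with 14 of 15 measured members above it, 0 called, 5 higher at an unadjusted p under 0.05, and a median of 0.22 or 0.12 without array 3 of B6.Sle1b. Bach2, a repressor that restrains effector differentiation, measured 9.51, 9.04 and 8.82 in Sle1b.BACSlamf6-H1 and 8.13, 8.56 and 7.77 in B6.Sle1b (0.97 ± 0.25, adjusted p = 0.272). In 11 of the 15 the lowest of the 6 arrays was array 3 of B6.Sle1b, and its part in the result was not tested.

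**Figure D4:**
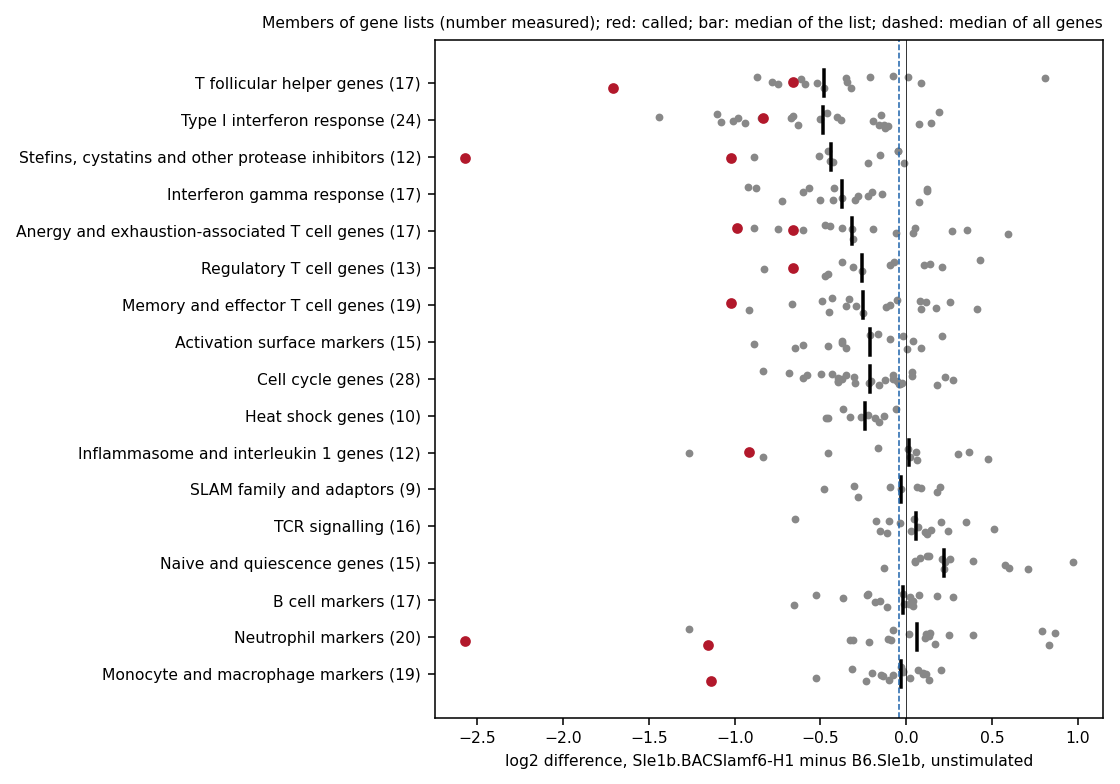
Difference in log2 intensity between unstimulated Sle1b.BACSlamf6-H1 and B6.Sle1b cells (x axis) for the measured members of 17 gene lists (rows, with the number measured); red points are called genes, grey points are not called, black bars are list medians and the dashed line is the median of all genes. Members of the T follicular helper (median -0.48), type I interferon (-0.48) and protease inhibitor (-0.44) lists lie mostly left of 0 and those of the naive and quiescence list (0.22) mostly right of it.

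Interferon-induced genes were lower in Sle1b.BACSlamf6-H1 in 1 called member, Mx1, and below 0 in most others. Of 30 listed type I interferon genes 24 were measured, 1 was called lower and 0 higher, 8 were lower and 0 higher at an unadjusted p under 0.05, 21 lay below and 3 above 0, and the median was -0.48. Over all genes these shares were 0.0819% called lower, 6.18% lower and 1.95% higher at an unadjusted p under 0.05, and 59.2% below 0. Without array 3 of B6.Sle1b the median of the type I genes was -0.29, and in 15 of the 24 genes that array was the highest of the 6. Of 17 measured genes of the interferon gamma list 0 were called, 3 were lower at an unadjusted p under 0.05, 14 lay below and 3 above 0, and the median was -0.38. Within Sle1b.BACSlamf6-H1, array 3 was the lowest of the 6 arrays in 16 type I and 10 interferon gamma genes. The summed intensity of the type I genes was 2254 to 4819 in Sle1b.BACSlamf6-H1 and 3602 to 8489 in B6.Sle1b. That of the interferon gamma genes was 5708 to 8610 and 8055 to 10255, in the same order of strains. Both sums overlapped. Mean log2 intensity overlapped for the type I genes (5.72 to 6.41 against 6.28 to 6.89). It did not for the interferon gamma genes (7.21 to 7.65 against 7.67 to 7.89).

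Mx1, an antiviral GTPase, measured 3.24, 2.91 and 2.94 in Sle1b.BACSlamf6-H1 and 3.69, 3.89 and 4.01 in B6.Sle1b. The strains did not overlap, though the values lay close to background (-0.83 ± 0.15, 1.78-fold, adjusted p = 0.0217, and up to 0.218 without array 2 of Sle1b.BACSlamf6-H1). Rsad2, the antiviral enzyme viperin, measured 7.91, 7.45 and 6.83 in Sle1b.BACSlamf6-H1 and 8.35, 9.01 and 9.16 in B6.Sle1b. It had the largest difference of its list and a wide spread within both strains (-1.44 ± 0.42, adjusted p = 0.334). The nucleic acid sensor Zbp1 (-1.10 ± 0.29), the exonuclease Isg20 (-1.08 ± 0.29) and Xaf1 (-0.63 ± 0.17), a modulator of apoptosis, did not overlap either, and none of these 3 was called (adjusted p = 0.308 each). Gbp2, a guanylate-binding protein that acts on vacuoles of intracellular pathogens, measured 9.25, 8.78 and 8.86 in Sle1b.BACSlamf6-H1 and 9.36, 9.62 and 10.08 in B6.Sle1b (-0.72 ± 0.16, adjusted p = 0.116). The chemokine Cxcl10 overlapped between the strains (-0.92 ± 0.46). Of the 24 type I genes, 7 had all Sle1b.BACSlamf6-H1 arrays below all B6.Sle1b arrays and 0 had them above. Over all genes 8.36% had them below and 2.81% above.

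The core of the interferon-stimulated response element, the site bound by interferon-activated factors, was searched as GAAANNGAAA and, on the other strand, TTTCNNTTTC, counting overlapping matches. It was present in the promoters of 10 of 17 type I genes with a RefSeq entry (58.8%) and 8 of 13 interferon gamma genes (61.5%), against 488 of 13605 tested genes with an entry (3.59%). Of the 14 called genes 7 had an entry and 0 held the core, Mx1 having no entry. Of the uncalled interferon genes named above that had an entry, Xaf1 and Isg20 did not hold the core, and Rsad2, Gbp2 and Cxcl10 did. The promoters of Rsad2 and Gbp2, the genes of the 2 lists with the largest difference and the smallest p among those not called, are shown with the core in capitals. Counted from the start site, its first base is at -120 in Rsad2 (chr12:26456403-26456702, minus strand) and at -59 in Gbp2 (chr3:142620413-142620712, plus strand), in GRCm38.p6, and both are printed 5′ to 3′ along the gene.
Rsad2: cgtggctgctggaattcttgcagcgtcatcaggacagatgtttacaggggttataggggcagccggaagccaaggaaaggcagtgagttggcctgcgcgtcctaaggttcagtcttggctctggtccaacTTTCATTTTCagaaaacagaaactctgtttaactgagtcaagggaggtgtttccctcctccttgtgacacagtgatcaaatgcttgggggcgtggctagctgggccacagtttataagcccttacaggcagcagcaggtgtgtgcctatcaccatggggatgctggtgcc
Gbp2: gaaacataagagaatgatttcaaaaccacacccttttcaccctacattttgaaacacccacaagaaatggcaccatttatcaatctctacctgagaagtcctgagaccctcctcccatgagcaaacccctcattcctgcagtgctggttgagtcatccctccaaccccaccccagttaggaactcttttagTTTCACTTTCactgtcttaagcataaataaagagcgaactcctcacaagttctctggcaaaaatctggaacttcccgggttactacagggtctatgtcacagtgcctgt

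Casp1, the protease that matures interleukin 1 beta in inflammasomes, measured 6.59, 6.39 and 6.58 in Sle1b.BACSlamf6-H1 and 7.50, 7.08 and 7.73 in B6.Sle1b. The Sle1b.BACSlamf6-H1 arrays agreed closely and all lay below the B6.Sle1b arrays (-0.92 ± 0.18, 1.89-fold, adjusted p = 0.0476, and up to 0.289 without array 2 of Sle1b.BACSlamf6-H1). Its neighbour in function Casp4, which senses bacterial lipopolysaccharide in the cytosol, measured 7.90, 7.77 and 8.17 in Sle1b.BACSlamf6-H1 and 8.72, 8.44 and 9.18 in B6.Sle1b (-0.84 ± 0.20, adjusted p = 0.176). Il1r2, which is also on the neutrophil list, measured 5.61, 5.79 and 6.40 in Sle1b.BACSlamf6-H1 and 7.66, 6.85 and 7.08 in B6.Sle1b (-1.26 ± 0.36, adjusted p = 0.325). Neither overlapped between the strains. Il18r1, a subunit of the interleukin 18 receptor, ran the other way, at 8.63, 8.66 and 8.72 in Sle1b.BACSlamf6-H1 and 8.18, 8.28 and 8.12 in B6.Sle1b (0.48 ± 0.14, adjusted p = 0.326). Over the 12 inflammasome and interleukin 1 genes measured 1 was called lower and 0 higher, against 0.0819% called lower over all genes. The median of the 12 was 0.02. Of the 12, 3 had all Sle1b.BACSlamf6-H1 arrays below all B6.Sle1b arrays and 1 had them above. Over all genes 8.36% had them below and 2.81% above.

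The other called genes belong to no list. 1810009J06Rik, named here by its clone symbol, measured 3.81, 3.72 and 3.69 in Sle1b.BACSlamf6-H1 and 4.93, 5.45 and 5.76 in B6.Sle1b (-1.64 ± 0.21, 3.12-fold, adjusted p = 0.00104). Its Sle1b.BACSlamf6-H1 arrays lay within a narrow range, and its call held without each of the 6 arrays. Insl6, a peptide hormone of the relaxin family, measured 5.84, 5.71 and 5.69 in Sle1b.BACSlamf6-H1 and 6.85, 6.59 and 7.42 in B6.Sle1b (-1.21 ± 0.20, 2.31-fold, adjusted p = 0.014, and up to 0.102 without array 2 of Sle1b.BACSlamf6-H1). The strains did not overlap in either gene. Pex11a, which takes part in the division of peroxisomes, measured 3.81, 3.90 and 3.97 in Sle1b.BACSlamf6-H1 and 4.64, 4.68 and 4.48 in B6.Sle1b (-0.70 ± 0.12, 1.63-fold, adjusted p = 0.0217). The protein palmitoyltransferase gene Zdhhc2 measured 3.98, 4.00 and 4.14 in Sle1b.BACSlamf6-H1 and 4.97, 4.58 and 4.76 in B6.Sle1b (-0.73 ± 0.14, 1.66-fold, adjusted p = 0.0384). Both were dim, and neither overlapped between the strains. Their other probe sets were not called. At background in both strains lay 1419365_PM_at of Pex11a (-0.32 ± 0.13) and 1452655_PM_at (-0.27 ± 0.14) and 1452656_PM_at (-0.25 ± 0.17) of Zdhhc2. A further probe set of Zdhhc2, 1453481_PM_at, lay at background in Sle1b.BACSlamf6-H1 (-0.61 ± 0.18, adjusted p = 0.417 over all probe sets). With the mean of a gene's probe sets neither Pex11a nor Zdhhc2 was called. Sec16b, which organises the sites where cargo leaves the endoplasmic reticulum, measured 2.27, 2.31 and 2.54 in Sle1b.BACSlamf6-H1 and 3.06, 3.46 and 3.01 in B6.Sle1b. It lay at background in Sle1b.BACSlamf6-H1 and was at least 1.26-fold higher in B6.Sle1b (-0.81 ± 0.15, adjusted p = 0.0384). Pex11a, Zdhhc2 and Sec16b kept their calls without 1 of the 6 arrays and lost them without the other 5, with adjusted p-values of up to 0.163, 0.253 and 0.226.

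The fit over 45037 single probe sets called 13 lower (0.0289%) and 0 higher, and 10 of these stand for called genes. Sccpdh, a gene with dehydrogenase homology, was called through its dimmer probe set 1426510_PM_at, with means of 2.85 in Sle1b.BACSlamf6-H1 and 3.89 in B6.Sle1b (-1.05 ± 0.18, adjusted p = 0.0365). On the brighter probe set that stands for it, Sccpdh overlapped between the strains. The probe set 1449254_PM_at, which has no gene symbol in the annotation used, had the largest called difference of all, with means of 3.28 in Sle1b.BACSlamf6-H1 and 5.91 in B6.Sle1b (-2.64 ± 0.35, 6.21-fold, adjusted p = 0.0027). Another without a symbol, 1423227_PM_at, lay at background in both strains.

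Among genes that were not called, the smallest p-values below 0 belonged to Sh3gl3, an endophilin of membrane traffic, at 5.08, 5.18 and 4.98 in Sle1b.BACSlamf6-H1 and 6.02, 6.06 and 5.96 in B6.Sle1b (-0.93 ± 0.18, adjusted p = 0.0565). The strains lay far apart beside the spread of their arrays. Trmt61b, a transfer RNA methyltransferase (-0.77 ± 0.16), the zinc finger gene Tshz2 (-0.71 ± 0.14), Rab19, a small GTPase (-0.68 ± 0.14), Oas1g of the oligoadenylate synthetase family (-0.62 ± 0.13) and the lactate transporter Slc16a1 (-0.62 ± 0.13) followed, with adjusted p-values of 0.0633 to 0.0663 and no overlap. Above 0, the smallest p was that of Sash3, a lymphocyte adaptor needed for T cell receptor signalling, at 9.77, 9.83 and 9.95 in Sle1b.BACSlamf6-H1 and 9.48, 9.35 and 9.09 in B6.Sle1b (0.54 ± 0.11, adjusted p = 0.0695). The calcium-dependent kinase Camk4 (0.83 ± 0.22) and Crlf3 (1.28 ± 0.32), a cytokine receptor-like factor, lay above 0 without overlap, with adjusted p-values of 0.308 and 0.246. Of the 20 genes with the smallest p above 0, array 3 of B6.Sle1b held the lowest value in 19, as it did in 61.3% of all genes with a difference above 0. Among the 14 called genes the highest array was array 1 of B6.Sle1b in 5, array 2 in 3 and array 3 in 6.

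The called genes were also set beside C57BL/6, which has neither the interval nor the BAC. Stfa3, Padi4 and Sec16b lay at background in both Sle1b.BACSlamf6-H1 and C57BL/6, so these 3 have no order between those strains. In the other 11 the Sle1b.BACSlamf6-H1 mean lay below the C57BL/6 mean in 10 and above it in 1, Sostdc1. The B6.Sle1b mean lay above the C57BL/6 mean in all 14. Between Sle1b.BACSlamf6-H1 and C57BL/6 limma called 0 of the 14, where 0.0292% of all genes were called lower and 0.0292% higher, and 4 were lower at an unadjusted p under 0.05, where 5.66% of all genes passed it in either direction. Between B6.Sle1b and C57BL/6 it called 6 higher, where 0.105% of all genes were. These comparisons share arrays with the one that chose the genes, so their values are given side by side only. Sostdc1 differed from C57BL/6 by 0.29 in Sle1b.BACSlamf6-H1 and by 2.00 in B6.Sle1b, and 1810009J06Rik by -0.25 in Sle1b.BACSlamf6-H1 and 1.39 in B6.Sle1b. Cst7 differed from C57BL/6 by -0.46 in Sle1b.BACSlamf6-H1 and by 0.56 in B6.Sle1b, so its C57BL/6 level lay between the 2.

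After stimulation the strain difference of these genes was smaller in size, and since they were chosen for the unstimulated difference its size is not independent of that choice. Over all genes, limma called 0 between Sle1b.BACSlamf6-H1 and B6.Sle1b at 4 h (613 at an unadjusted p under 0.05, 3.59%) and 0 at 24 h (908, 5.31%). The 4 h and 24 h arrays entered the estimate of spread that chose the genes and that also underlies their p-values here, so these counts are not independent of the choice. Of the 14 genes 14 lay below 0 at 4 h, where 55.2% of all genes did, and 7 were lower at an unadjusted p under 0.05, where 2.24% of all genes were. At 24 h 9 lay below 0, where 48.2% of all genes did, and at an unadjusted p under 0.05 1 was lower (Sostdc1), where 2.64% of all genes were, and 1 was higher (Ms4a6d, 0.40 ± 0.19). Their median difference was -1.003 in unstimulated cells, which chose them, -0.34 at 4 h and -0.10 at 24 h. Sostdc1 differed by -0.69 ± 0.24 at 4 h and -0.60 ± 0.24 at 24 h, and Mx1 by -0.64 ± 0.15 and 0.11 ± 0.15.

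The levels behind these differences varied with time in both strains. Stfa3 lay at background in both strains at 4 h and 24 h, with means of 2.24 and 1.89 in Sle1b.BACSlamf6-H1 and 2.83 and 2.08 in B6.Sle1b. Insl6 was brighter at 4 h in both strains, with means of 8.59 in Sle1b.BACSlamf6-H1 and 8.67 in B6.Sle1b, and Cst7 was brighter at 24 h, with means of 9.08 in Sle1b.BACSlamf6-H1 and 9.15 in B6.Sle1b. The strain difference of Insl6 at 4 h was -0.08 ± 0.20 and that of Cst7 at 24 h was -0.07 ± 0.15. Tested directly, the difference of Stfa3 in unstimulated cells was larger than that at 24 h by -2.39 ± 0.37 (adjusted p = 0.032, 1 gene of 17097 or 0.00585%). Because Stfa3 had the largest unstimulated difference, the same arrays that singled it out enter this contrast, and without each array of Sle1b.BACSlamf6-H1 and array 1 of B6.Sle1b the contrast called 0 genes. Against 4 h it called 0 (903 at an unadjusted p under 0.05). For the gene lists, the type I interferon median was -0.40 at 4 h and 0.15 at 24 h, and the T follicular helper median was -0.10 and -0.01.

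**Figure D5:**
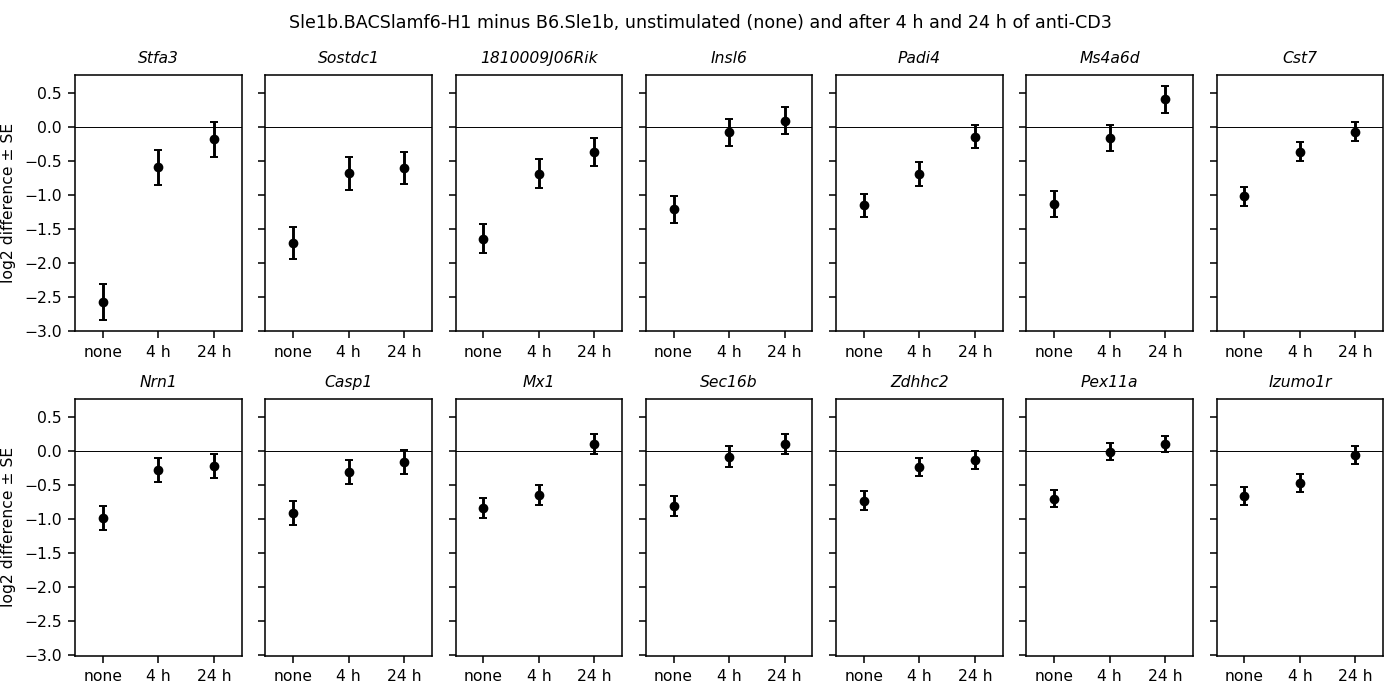
Difference in log2 intensity between Sle1b.BACSlamf6-H1 and B6.Sle1b (y axis, ± SE from limma) for each called gene in unstimulated cells (none) and after 4 h and 24 h on antibody to CD3 (x axis). All 14 lie below 0 at 4 h and 9 do at 24 h, and every difference is smaller in size than in unstimulated cells.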

How the data were processed

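Total RNA of CD4+ T cells was labelled and read on Affymetrix HT MG-430 PM arrays, with 1 array for each sample. The deposited values are linear intensity values of 45141 probe sets from RMA, per the submitters' processing notes, and the version of RMA is not given in the sources used here. The method corrects background, quantile normalizes and summarises probes, so differences are relative to the other genes of an array. Log2 was taken, with no pseudocount and no filter. The number of arrays limits the precision.

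Gene symbols came from the platform annotation, which lists 28898 probe sets with 1 symbol, 551 with several and 15692 with none (104 of them controls); 28689 were matched to the RefSeq table of GRCm38.p6. Each of 17097 genes was read through its probe set with the highest mean, kept in every alternative. Background was set on each array at the 95th percentile of 23 control probe sets that match no transcript. Where a group's mean lay at or under it, a fold is a bound: the dim group enters with its own value or the background, whichever was higher on each array.

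Differences were tested with limma 3.58.1 in R 4.3.3, fitting a mean for each of 9 groups to the 26 biological arrays (2 arrays labelled technical entered an alternative), then eBayes and Benjamini-Hochberg adjustment. The labels name no animals, so p-values capture sample spread that could be technical. On simulated data of this comparison (17097 genes), 100% of 50 genes changed by -2 and 86% of 50 changed by -1 were called, as were 76% of 50 changed by 1 and 100% of 50 changed by 2, with 11 false calls. The simulated noise was independent for each gene, with the same spread in every group. Effects shared by the genes of an array were not simulated, so these rates need not hold for the real arrays.

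The named genes were the SLAM family, every called gene, the 20 with the smallest p in each direction, up to 6 members per list with the smallest p and the 4 brightest markers of other cell types, called genes of each interaction and genes called through another probe set; the text leaves some out. Others named in the text are list members chosen after their values were seen. Members and lists were chosen with earlier results of these data known, and lists were not tested. The other lists, with 0 calls, were immediate early genes (median -0.15), TCR signalling (0.06), cytokines (-0.13), apoptosis (0.04), heat shock (-0.24), cell cycle (-0.21) and markers of plasma cells (-0.04), dendritic cells (-0.06), NK cells (0.10) and CD8 T cells (-0.04). Promoters are 300 bases from RefSeq. Alternatives changed the arrays fitted, normalization, weights, filters, probe set rule and replicate block.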

Additional observations from a re-analysis of the deposited data

Results flagged for a closer look

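For Stfa3 the strain difference in unstimulated cells differed from that at 24 h, by -2.39 ± 0.37 on the log2 scale (limma interaction contrast, adjusted p = 0.032). It is the 1 gene that this contrast called. The contrast called 0 genes without each array of Sle1b.BACSlamf6-H1 in turn and without array 1 of B6.Sle1b. It also called 0 after quantile normalizing again and with a pseudocount of 16. The difference was -2.57 ± 0.26 in unstimulated cells and -0.18 ± 0.26 at 24 h, where both strains lay at background. All 3 unstimulated B6.Sle1b arrays lay above all 3 of Sle1b.BACSlamf6-H1, as they did in 8.36% of all genes.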

How the results depend on the processing

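All 14 called genes kept their sign under each of the 19 alternatives in which they were tested (Sec16b in 18). In each gene all Sle1b.BACSlamf6-H1 arrays lay below all B6.Sle1b arrays, so a fit that left arrays out or weighted them could not change the sign. Fits that changed only the other arrays, the filter, the prior or the replicate block kept the difference itself. For these alternatives the kept sign was fixed beforehand and tests nothing. The count of called genes was 0 with the arrays of the 2 strains alone, 0 with the 9 unstimulated arrays (686 at an unadjusted p under 0.05), 5 to 32 without 1 array at a time, 8 after median centring, 108 after adjusting for brightness, 4018 under array weights (2950 lower and 1068 higher) and 22 with a pseudocount of 16. Array weights ran from 0.0487 to 8.71, and their estimation stopped before it converged. For probe sets the counts under these settings were 0, 1, 5 to 102, 6, 162, 10635 and 25, and 20 without arrays under a 75th percentile of 36, a setting chosen after seeing the data, as were the probe set counts under alternatives. Among the fits without 1 array, the one without array 2 of B6.Sle1b gave the highest counts of genes and of probe sets. The interaction with 4 h called 0 to 1 genes without 1 array at a time. The interaction with 24 h called 0 to 2, and 0 after quantile normalizing again, 7 after adjusting for brightness, 1262 under array weights and 0 with a pseudocount of 16. Same-numbered arrays of the 2 strains correlated at -0.037, 0.372 and 0.481 in their deviations over genes, so the numbers were not taken as pairing, and not every array correlated best with its own number. With the replicate block limma called 0 genes (1422 at an unadjusted p under 0.05) and 1 probe set. Derl3 reversed under array weights (-0.39, adjusted p = 0.0277). Of the values of single genes, 3339 kept direction and side of the threshold, 154 passed it only under the alternative and 109 lost it. The causes were not tested.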

Other observations

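Cell cycle genes and heat shock genes held no calls in unstimulated cells by limma but lay below 0 in most members, as did 59.2% of all genes. Of 28 measured cell cycle genes 23 lay below 0 and 4 were lower at an unadjusted p under 0.05, where 6.18% of all genes were. The median of the 28 was -0.21, or -0.42 without array 3 of B6.Sle1b. Tyms, which makes thymidylate for DNA synthesis, measured 5.53, 5.90 and 5.86 in Sle1b.BACSlamf6-H1 and 7.20, 5.91 and 6.69 in B6.Sle1b (-0.84 ± 0.26, adjusted p = 0.394). In 24 of the 28 the highest of the 6 arrays was array 1 of B6.Sle1b, as in 2973 of all 17097 genes. The mean log2 intensity of the 28 was 5.79, 6.16 and 6.01 on the Sle1b.BACSlamf6-H1 arrays and 6.78, 5.98 and 5.90 on the B6.Sle1b arrays. Arrays 2 and 3 of B6.Sle1b thus lay within the range of Sle1b.BACSlamf6-H1. The median without array 1 of B6.Sle1b was not calculated. Of 10 heat shock genes measured all 10 lay below 0, with a median of -0.24, and the mitochondrial chaperonin gene Hspe1 differed by -0.46 ± 0.20 (adjusted p = 0.574).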
